A study of Mus musculus with 6 samples.

Results

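Endocardial nuclei are those of the endothelium that lines the inside of the heart chambers. In single-nucleus RNA sequencing of mouse left ventricle they were chosen by the UMIs (unique molecular identifiers, the molecules counted) of the genes Npr3, Nrg1, Smoc1, Tmem108 and Vwf. A nucleus was a member if it had at least 3 UMIs over these 5 genes with at least 2 of them seen, and at least 1 UMI over the endothelial genes Pecam1, Cdh5, Ptprb and Flt1. It also had at most 1 UMI over the lymphatic genes Mmrn1 and Reln, at most 1 over the fibroblast and mural genes Pdgfra and Rgs5, and under 1% of its UMIs from the cardiomyocyte genes Ttn, Ryr2 and Myh6. There were 3306 such nuclei, 6.83% of the 48438 nuclei that passed quality control. The 16 genes named here chose the members, so their levels are given as a description, with no test.

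The hearts were from male mice in 3 groups, with 2 libraries in each. WT-CD mice were wild-type littermates on control diet. The R403Q-CD group ate that diet too but bore R403Q, a substitution in the heavy chain of cardiac myosin that models hypertrophic cardiomyopathy. R403Q-EMPA mice bore the same substitution and ate the control diet with 0.15 mg of empagliflozin per g, about 15 mg/kg body weight. Empagliflozin (EMPA) inhibits the sodium-glucose cotransporter SGLT2. No group held wild-type mice on EMPA, so the drug could be compared in mutant hearts alone. The labels give an age of 12 weeks for the hearts, a diet start at 9 to 10 weeks and a diet of 16 weeks, which cannot all hold for the same mouse. The labelled age and diet start leave 2 to 3 weeks of treatment, and the study's methods place sampling for RNA sequencing early in the treatment, though without naming the single-nucleus libraries. All libraries were made from nuclei of 50 mg of fresh frozen tissue.

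The endocardium faces the blood of the chamber and also gives rise to the valve lining. It signals to the muscle beneath it, for example through neuregulin 1 (Nrg1), which binds ErbB receptors on cardiomyocytes. Npr3 encodes the clearance receptor for natriuretic peptides, Vwf the clotting protein von Willebrand factor, and Smoc1 a secreted calcium-binding protein.

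The libraries held 651 and 561 endocardial nuclei in WT-CD, 368 and 598 for R403Q-CD, and 580 and 548 for R403Q-EMPA (replicates 1 and 2 of each). The median endocardial nucleus had 3623.5 UMIs and 1865 genes, with library medians from 2666.5 to 4449.5 UMIs, and the summed endocardial UMIs per library ranged from 1438444 to 2869093. Totals over all barcodes ranged from 31787308 to 45397128 UMIs per library. Within each group the 2 libraries were not copies of one another: chi-square per degree of freedom was 5.89 in WT-CD and 3.88 in R403Q-EMPA, and lower, at 2.21, in R403Q-CD. The labels give no animal for a library and no batch, so p-values measure the spread between these libraries, which may be technical, and a batch that fell on the groups cannot be told apart from them. Of the members, 147 (4.45%) were predicted doublets and 54 carried a barcode that also occurs in another library; both were kept here.

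Npr3, Nrg1, Smoc1, Tmem108 and Vwf marked members to different degrees. Tmem108 was seen in up to 95.1% of the members of a library and Vwf in 86.6% to 95.7%. Npr3 was seen in 67.9% to 90.5%, Smoc1 in 42.8% to 67.9% and Nrg1 in 21.2% to 36.0%. In the 11556 other vascular endothelial nuclei, which were chosen for at most 1 UMI over these 5 genes, Vwf was seen in 6.13% to 10.2% and Npr3 in 1.52% to 3.52%. Their median depth was 2127.5 to 3375 UMIs per library. All 5 genes were seen together in 656 members (19.8%).

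Levels are given as UMIs per 1000000 (CPM), after normalization between libraries unless said otherwise. Smoc1, at 617 and 683 CPM in WT-CD, 716 and 533 for R403Q-CD, and 334 and 323 for R403Q-EMPA, was lower in both R403Q-EMPA libraries than in the other 4. Nrg1 was at 649 and 914 CPM in WT-CD, 574 and 334 for R403Q-CD, and 566 and 427 for R403Q-EMPA, and both WT-CD libraries were above the other 4. Npr3 stood at 2679 and 2734 CPM in WT-CD, 3197 and 2917 for R403Q-CD, and 1779 and 2779.7 for R403Q-EMPA. Vwf stood at 1747 and 1891 CPM in WT-CD, 1589.9 and 1788 for R403Q-CD, and 1404 and 1594 for R403Q-EMPA. Both were lowest in R403Q-EMPA replicate 1.

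Members passed the rule with fewer marker UMIs in both R403Q-EMPA libraries than in the other 4. Their median was 18 and 20 UMIs over the 5 genes, against 26 to 39, and all 5 genes were seen in 11.2% and 13.0% of members, against 17.6% to 29.9%. The endocardial markers outside the rule lay on both sides of the untreated levels. Of the 13, 8 had higher and 5 lower values in R403Q-EMPA than in R403Q-CD (median change 0.12), and 6 and 7 against WT-CD (median -0.05). Their summed normalized level was lower in treated libraries, at 6445 and 6924 CPM against 8173 to 8867. Abundant Hmcn1 held much of that sum, at 4145 and 4761 CPM in WT-CD, 4634 and 4761 for R403Q-CD, and 2573 and 3308 for R403Q-EMPA, while Cdh11 was highest in both treated libraries. The part of the lower marker UMIs in the results was not tested, and leaving out 1 treated library does not remove it. R403Q-EMPA replicate 1 was furthest in the share of members with only 2 of the 5 genes, which was 37.8% there, against 12.7% to 21.5% in the other 5 libraries. At the threshold itself, members with exactly 3 UMIs numbered 8 to 28 per library (96 in all), and nuclei with 2 UMIs that met every other condition numbered 18 to 26 (126 in all). Nuclei with 3 or more UMIs from 1 of the 5 genes alone, which stayed outside, numbered 268 in R403Q-EMPA replicate 1 and 58 to 132 elsewhere. Results are also given without this library.

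The share of endocardial nuclei ranged most widely within R403Q-CD. It was 6.40% and 6.99% of nuclei in WT-CD, 4.64% and 8.19% for R403Q-CD, and 7.04% and 8.11% for R403Q-EMPA. The R403Q-CD libraries lay on both sides of all the others, and both R403Q-EMPA libraries lay above both of WT-CD. Group means were 6.70% ± 0.416, 6.41% ± 2.51 and 7.57% ± 0.762 (SD, n = 2). R403Q-CD differed from WT-CD by -0.284 percentage points and R403Q-EMPA from R403Q-CD by 1.16 points (two-sided exact permutation p = 1 for each, where 0.3333 is the smallest that 2 libraries against 2 allow). R403Q-EMPA exceeded WT-CD by 0.880 points (two-sided exact permutation p = 0.3333). This last difference turned to -0.298 points under a stricter marker rule and to -0.394 points of the endothelial nuclei alone. It kept its sign under a rule built on 6 other markers, given below. That rule took 5.50% and 5.12% of nuclei in WT-CD, 3.49% and 6.53% for R403Q-CD, and 7.25% and 7.14% for R403Q-EMPA.

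**Figure D1:**
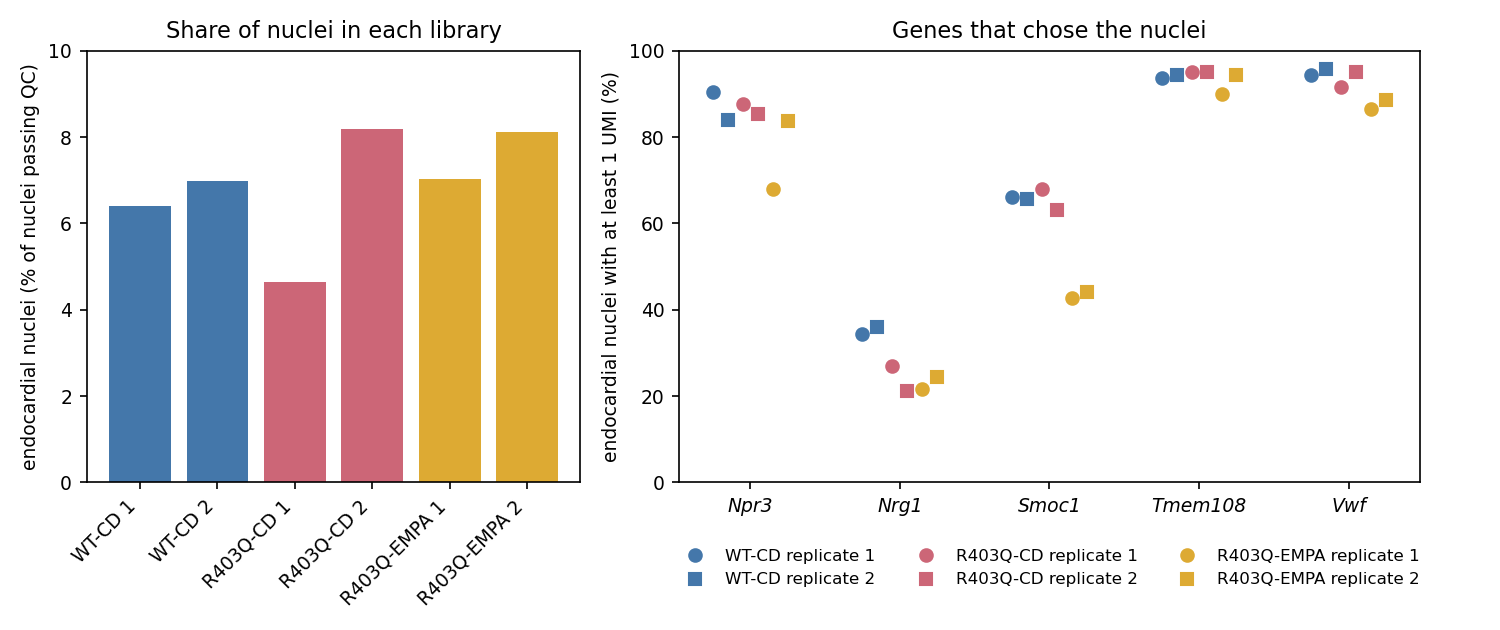
Left, endocardial nuclei as a percentage of the nuclei that passed quality control, 1 bar per library. Right, percentage of endocardial nuclei with at least 1 UMI of each of the 5 genes that chose them, 1 point per library (colour, group; shape, replicate). Shares run from 4.64% to 8.19% with R403Q-CD at both ends, and Npr3 is lowest in R403Q-EMPA replicate 1.

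Genes that the rule did not use were checked against the label, as a description. Of 13 other endocardial markers, 10 were higher in members than in other vascular endothelial nuclei of the same library in all 6 libraries, and 0 were lower in all 6. Their summed level over all libraries was 7954 CPM in members and 1595 in the other vascular endothelial nuclei, a ratio of 4.99 (levels compared between classes are CPM without that normalization). Cdh11, an adhesion protein, stood at 1226.5 against 18.5, the matrix protein hemicentin 1 (Hmcn1) at 4056 against 469.5, and the cardiac transcription factor Gata4 at 241.9 against 16.4. Hand2, another cardiac transcription factor, stood at 91.5 against 6.73, and Plvap, which forms diaphragms of endothelial pores, at 237 against 6.93. Gatm, Hapln1 and Lepr were the 3 exceptions, and none of the exceptions was lower in every library.

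All 11 capillary markers were lower in members in every library, with a summed level of 1293 CPM against 6274, or 4.85 times lower. Car4, a capillary carbonic anhydrase, was at 3.15 against 98.8, Rgcc at 16.7 against 254.8 and the fatty acid transporter Cd36 at 341.3 against 2205. Of 16 fatty acid handling genes, 9 were lower in members in every library, 5 of them also capillary markers (Tcf15, Fabp4, Cd36, Meox2 and Gpihbp1), and Fabp5 and Slc27a1 were higher. Of 8 venous markers, 5 were higher in members in every library and 0 lower (summed ratio 2.67). Of 5 lymphatic markers, Prox1 (40.7 against 8.27) and Lyve1 (118.8 against 13.8) were higher in every library and Flt4 was lower (summed ratio 2.15). In the 1188 lymphatic endothelial nuclei Prox1 was at 1110.0, but Prox1 helped to choose them. Their rule asked for at least 3 UMIs over Mmrn1, Reln, Prox1 and Flt4 with at least 2 of these seen. Among markers of other cells, 3 of 9 fibroblast genes were higher in members in every library and 2 lower, with a summed ratio of 3.09, and Mgp stood at 1459.6 against 131.2 and Dcn at 724.2 against 211.1. Of 6 epicardial genes, Lrrn4, Upk3b, Muc16, Upk1b and Msln were higher in members in every library, with Muc16 the most abundant of these at 31.7 against 2.09, and Wt1 was lower (44.1 against 133.6). Lymphoid, myeloid and cycling lists were lower in members than in the other vascular endothelial nuclei, at ratios of 0.246, 0.617 and 0.276.

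Of 20 vasoactive and natriuretic genes outside the rule, 12 were higher in members in all 6 libraries and 4 were lower. Those lower were the natriuretic peptide receptors Npr1 (98.6 against 125 CPM) and Npr2 (35.1 against 48.4), the phosphodiesterase Pde2a (120.6 against 251.5) and the angiotensin-converting enzyme Ace (28.9 against 50.4). Among all 9875 genes of at least 10 CPM in either class, 25.1% were higher in members in every library and 23.6% were lower. The summed ratio of the vasoactive list was 4.73, and 2.63 without Prkg1, which alone held about as much RNA as the rest of the list in members. The cGMP-dependent kinase gene Prkg1 was at 5436 CPM against 221.5, and the cyclic nucleotide phosphodiesterase Pde3a at 1166 against 37.5. Endothelin processing was represented by the converting enzyme Ece1 at 823.8 against 194.7 and by the receptor Ednrb at 354.5 against 129.4. Nos3, the endothelial nitric oxide synthase, was at 532.5 against 233.6. Of 22 BMP and TGF-beta genes, 15 were higher in members in every library and 3 lower.

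The genes with the largest ratio between the classes, among those of at least 50 CPM, were Rasgef1b, Epha7, Gpm6a, Fgf14, Cdh11, Sytl5, Col23a1, Chrm3, Slco1a4, Adh6b, Nrxn3, Hpgd, Kcnh1, Cyp1b1 and Ncam1. Rasgef1b, a Ras exchange factor gene, was at 1487 CPM in members and 13.2 elsewhere (105-fold, with 1 added to each value). Hpgd, which inactivates prostaglandins, was 42.3-fold higher, and the muscarinic acetylcholine receptor Chrm3 50.1-fold. In the other direction stood Gm12002, Btnl9, Car4, Dach1, Ablim3, Myo10, Sema7a, Gabrb2, Sybu, Rapgef4, Nav3, Ephb1, St8sia4, Cyp4b1 and Ccdc85a. Dach1, a transcription factor of coronary vessel growth, was 19.7-fold lower in members. Chrm3 varied most among the 5 plotted genes, from 549.3 to 2317 CPM over the libraries.

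**Figure D2:**
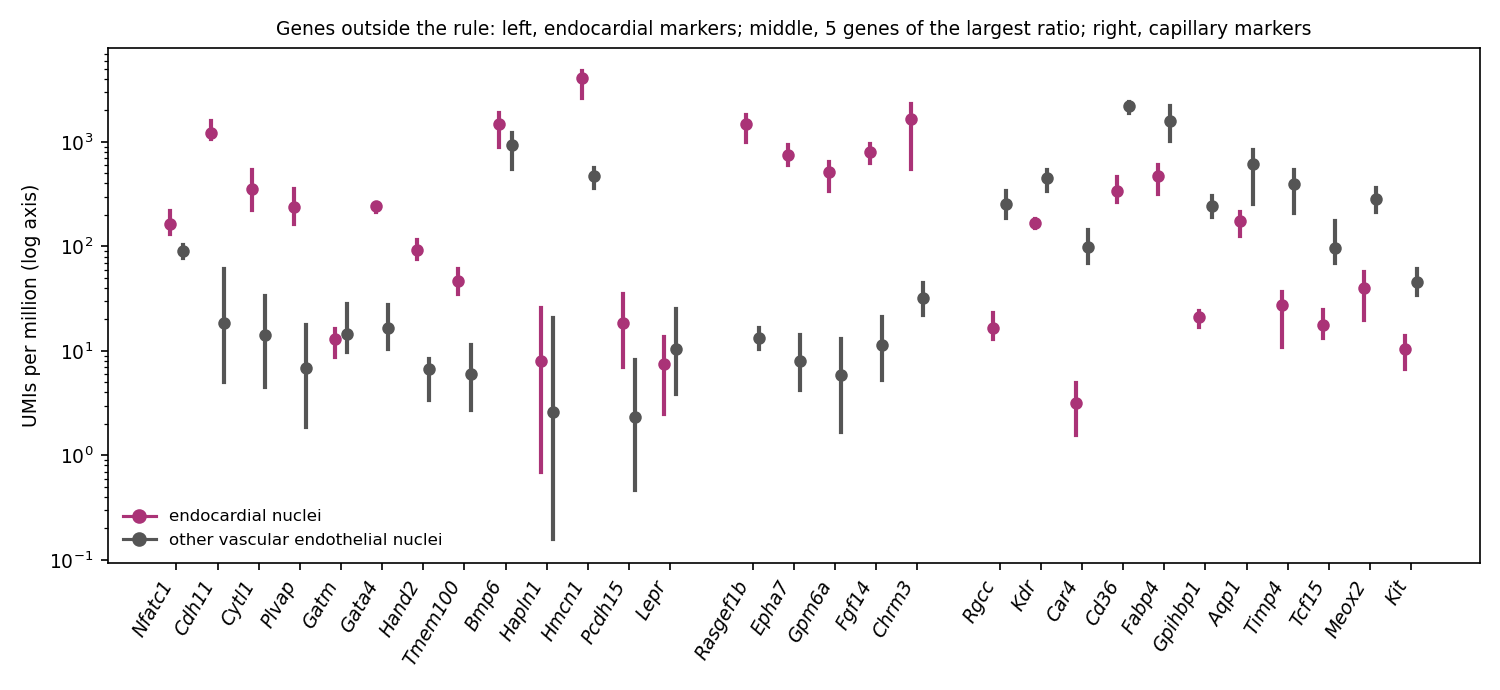
CPM without normalization (log axis) of genes outside the rule in endocardial nuclei (purple) and other vascular endothelial nuclei (grey), with points for the sum over all libraries and lines from the lowest to the highest library. Left, 13 endocardial markers; middle, 5 of the genes with the largest ratio; right, 11 capillary markers. Endocardial markers such as Cdh11 (1226.5 against 18.5) lie higher in members and all capillary markers lie lower.

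Members varied among themselves with the number of rule genes seen. In the 691 members with 2 of the 5 genes, Cdh11 stood at 571 and 331.4 CPM in WT-CD, 525.8 and 506.2 for R403Q-CD, and 1279 and 1104 for R403Q-EMPA. In members with 3 or more it stood at 1258 and 1333, 1205 and 1157, and 1737 and 1370. Thus the members with 2 genes carried less Cdh11 than the rest in every library, and the gap was smallest in R403Q-EMPA replicates 1 and 2. Nuclei just outside the threshold also had more Cdh11 in R403Q-EMPA, at 586.3 and 704.5, than in the other groups, at 0 to 102.5. A rule built on 6 other markers (Cdh11, Cytl1, Plvap, Gata4, Hand2 and Tmem100) gave 2804 nuclei, of which 2456 were members. The share of these nuclei that were members was 91.8% and 92.0% in WT-CD and 94.9% and 93.9% for R403Q-CD. It was lower for R403Q-EMPA, at 71.9% and 88.0%, and the part of this in the results was not tested.

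To compare groups, UMIs were summed per library over endocardial nuclei and tested with edgeR over 11924 genes, without the 16 rule genes and mitochondrial genes. A change is a log2 fold change with its SE. Fewer nuclei that carry an RNA and less of it per nucleus cannot be told apart in these sums. The 3 comparisons share libraries, so their values are given side by side and their overlap is not a result. The median change over all tested genes was 0.00 for the mutation on control diet, 0.00 for EMPA in mutants and -0.01 for treated mutants against WT-CD.

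R403Q-CD against WT-CD asks what the mutation altered on control diet. Of 11924 genes, 0 (0%) had an adjusted p under 0.05 in edgeR, 429 had an unadjusted p under 0.05, and DESeq2 also called 0. Among those with the lowest p were Clstn2, Car3, Slc7a2, St18, Ptprd, Pdgfc and Gria3. Clstn2, a synaptic adhesion gene, was at 2.62 and 4.52 CPM in WT-CD, 25.8 and 20.9 for R403Q-CD, and 10.4 and 8.74 for R403Q-EMPA, and both R403Q-CD libraries exceeded all others (change 2.66 ± 0.36, adjusted p = 0.169). In the nuclei chosen by the 6-marker rule it was at 22.6 and 11.1 CPM without normalization in WT-CD, 12.8 and 24.2 for R403Q-CD, and 23.3 and 7.40 for R403Q-EMPA, so there the groups overlapped (change 0.22, adjusted p = 1.00). Car3, a carbonic anhydrase, was at 16.2 and 14.0 CPM in WT-CD, 1.40 and 1.40 for R403Q-CD, and 2.496 and 3.74 for R403Q-EMPA, with WT-CD above the rest (change -3.38 ± 0.49, adjusted p = 0.169). In WT-CD replicate 1, 36 of its 37 UMIs came from 1 nucleus, and in replicate 2 all 34 did. Slc7a2, a transporter of cationic amino acids, was at 74.7 and 68.2 CPM in WT-CD, 34.2 and 28.3 for R403Q-CD, and 16.6 and 20.6 for R403Q-EMPA, and its WT-CD and R403Q-CD values did not overlap (change -1.21 ± 0.20, adjusted p = 0.299). Ptprd, Pdgfc and Gria3 had changes of -1.29, -1.42 and -1.48, with adjusted p from 0.339 to 0.528.

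St18 illustrates how few nuclei can carry such a difference. Its 45 UMIs in R403Q-CD came from 2 and 5 nuclei, against 3 UMIs in WT-CD, a 16.5-fold ratio (counting interval 5.29 to 82.9, adjusted p = 0.339). In R403Q-EMPA it had 0 UMIs, which is at least 14.0-fold lower than R403Q-CD with 3 UMIs over the group as the floor. That second difference passed the test (adjusted p = 0.0275).

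R403Q-EMPA against R403Q-CD asks what EMPA altered in mutant hearts. Endocardial nuclei from treated hearts had more RNA of heat shock chaperones, of the clock gene Arntl and of the extracellular genes Hapln1, Edil3 and Dkk2, and less of the MHC class I genes H2-K1 and H2-Q4. In all, 21 of 11924 genes passed (0.176%), of which 16 rose (0.134% of the genes tested) and 5 fell (0.0419%). The contrast of treated mutants with wild type, R403Q-EMPA against WT-CD, gave 108 genes (0.906%), with 64 higher (0.537%) and 44 lower (0.369%). DESeq2 called 53 and 132 genes, of which 20 and 92 were also called by edgeR.

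The counts turned on single libraries. For EMPA in mutants, 0 genes were called without R403Q-CD replicate 2 or without R403Q-EMPA replicate 1, 9 without R403Q-CD replicate 1, and 46 to 63 without WT-CD replicate 2, WT-CD replicate 1 or R403Q-EMPA replicate 2. In R403Q-EMPA against WT-CD, the count was 16 without R403Q-EMPA replicate 1, 62 to 71 without WT-CD replicate 2 or either R403Q-CD library, 137 without R403Q-EMPA replicate 2 and 196 without WT-CD replicate 1. The sign of the change held in each of these fits for every gene named here for its size of change or its p. Such genes still called against WT-CD included Hspa1b and Dbp without R403Q-EMPA replicate 1, and Hspa1b, Dbp, Dkk2 and Nr1d1 without WT-CD replicate 2.

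Heat shock genes encode chaperones that refold or shield damaged proteins, and many are switched on by the factor HSF1 at inverted repeats of the letters GAA. The promoters of 3 of them are shown because they are among the genes that rose and each holds such a pair, read as GAANNTTC or TTCNNGAA (capitals). The sequences are the 250 bases before the gene start in the RefSeq table of build GRCm38.p6: Hspa1a at chr17:34972157-34972406, Hspa1b at chr17:34959239-34959488 and Hsph1 at chr5:149636337-149636586, all on the minus strand and printed 5′ to 3′ along the gene.
Hspa1a: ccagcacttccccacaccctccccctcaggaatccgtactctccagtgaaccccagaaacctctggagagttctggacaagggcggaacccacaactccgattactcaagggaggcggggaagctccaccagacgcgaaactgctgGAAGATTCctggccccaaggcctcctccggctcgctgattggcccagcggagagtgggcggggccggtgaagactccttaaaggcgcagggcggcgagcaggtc
Hspa1b: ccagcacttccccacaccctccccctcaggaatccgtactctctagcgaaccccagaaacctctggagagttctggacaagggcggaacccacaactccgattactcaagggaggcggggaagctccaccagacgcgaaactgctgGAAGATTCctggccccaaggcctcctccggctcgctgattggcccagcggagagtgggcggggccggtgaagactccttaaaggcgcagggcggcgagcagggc
Hsph1: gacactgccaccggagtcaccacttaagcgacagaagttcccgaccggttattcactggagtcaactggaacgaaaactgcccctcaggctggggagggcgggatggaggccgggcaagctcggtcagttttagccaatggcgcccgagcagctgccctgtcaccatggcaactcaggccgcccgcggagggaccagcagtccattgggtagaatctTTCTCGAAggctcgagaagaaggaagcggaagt
The Hspa1a and Hspa1b windows have the same base at 247 of 250 positions, and the match lies 96 bases before the start in both, and 25 bases before it in Hsph1. On either strand, one of these palindromic pairs was found in 12.8% of the 32851 windows of the table. It was found for 7 of the 12 listed heat shock genes that could be matched there (Dnaja1, Hspa1a, Hspa1b, Hspb1, Hspd1, Hspe1 and Hsph1, any window of a gene), a description of letters and not of binding.

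The Hsp70 genes Hspa1a and Hspa1b changed most within the list. Hspa1a was at 2.19 and 2.05 CPM in WT-CD, 0.699 and 1.74 for R403Q-CD, and 22.5 and 28.1 for R403Q-EMPA. Hspa1b was at 0.874 and 0.821 CPM in WT-CD, 2.10 and 0.698 for R403Q-CD, and 25.0 and 23.1 for R403Q-EMPA. Both were under 3 CPM in all 4 libraries without EMPA and far above that in both with it. The change of Hspa1a was 4.13 ± 0.46 against R403Q-CD (adjusted p = 0.00601) and 3.53 ± 0.41 against WT-CD (adjusted p = 0.0044). That of Hspa1b was 4.28 ± 0.49 (adjusted p = 0.00601) and 4.74 ± 0.50 (adjusted p = 0.00278). In R403Q-EMPA the UMIs of Hspa1a came from 43 of 580 and 23 of 548 nuclei, and those of Hspa1b from 49 and 23. The copies are nearly identical, so the split of reads between them is uncertain.

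Hsph1, an Hsp110 exchange factor for Hsp70, was at 33.2 and 26.3 CPM in WT-CD, 50.3 and 42.2 for R403Q-CD, and 166 and 147 for R403Q-EMPA. The groups did not overlap, with WT-CD lowest and R403Q-EMPA highest. The change was 1.77 ± 0.18 against R403Q-CD (adjusted p = 0.00595) and 2.39 ± 0.19 against WT-CD (adjusted p = 0.000774). For R403Q-CD against WT-CD it was 0.62, which did not pass. Hsp90aa1, the inducible Hsp90, was at 59.4 and 44.3 CPM in WT-CD, 48.2 and 61.8 for R403Q-CD, and 130.2 and 170.4 for R403Q-EMPA (change 1.42 ± 0.21, adjusted p = 0.0271 against R403Q-CD). Hspa4l, a further Hsp110 protein, was at 49.4 and 57.1 CPM in WT-CD, 47.5 and 66.3 for R403Q-CD, and 141 and 135 for R403Q-EMPA (change 1.25 ± 0.19, adjusted p = 0.0271). Both treated libraries lay above the other 4 for each of these 3 genes.

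Of the 15 heat shock genes, all tested, 5 rose in R403Q-EMPA against R403Q-CD (Hspa1a, Hspa1b, Hsph1, Hsp90aa1 and Hspa4l) and 10 did not pass. The median change was 1.12, beside 0.00 over all genes, and all 15 values were positive. Against WT-CD, 10 rose and 5 did not pass, with a median of 1.32 beside -0.01. The 5 further calls were Dnajb1 (1.87 ± 0.34, adjusted p = 0.0318), Hspb1 (1.88 ± 0.33, adjusted p = 0.0285), Dnaja1 (1.32 ± 0.19, adjusted p = 0.0114), Hspa8 (1.25 ± 0.24, adjusted p = 0.0449) and Hsp90ab1 (1.15 ± 0.23, adjusted p = 0.0499). Hspd1, Hspe1, Bag3, Chordc1 and Hspa5, which work in mitochondria, with Hsp70 or Hsp90, or in the endoplasmic reticulum, passed in neither comparison. In R403Q-CD against WT-CD, 0 were called and the median was 0.16.

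Summed over the list, heat shock RNA was 1144 and 758 CPM in WT-CD, 1058 and 1065 for R403Q-CD, and 2171 and 2365 for R403Q-EMPA. RNA of the 13 mitochondrially encoded genes, which quality control limits per nucleus, was at 27278 and 25591 normalized CPM in WT-CD, 21745 and 22849 for R403Q-CD, and 24771 and 31712 for R403Q-EMPA, with both treated libraries above both of R403Q-CD. The other vascular endothelial nuclei had the same order of libraries for these 2 groups. The part of mitochondrial RNA in the heat shock result was not tested. Members called against R403Q-CD numbered 0 without R403Q-CD replicate 2 or R403Q-EMPA replicate 1, 3 and 4 without R403Q-CD replicate 1 and R403Q-EMPA replicate 2, and 11 without either WT-CD library. Against WT-CD they numbered 13 and 7 without WT-CD replicates 1 and 2, 5 without R403Q-EMPA replicate 1, and 6 without R403Q-EMPA replicate 2 or either R403Q-CD library. With at least 5 marker UMIs and 3 marker genes per member, 3 rose against R403Q-CD and 5 against WT-CD. A fit of only the 4 libraries compared called 11 and 6, and DESeq2 called 10 and 11. Co-chaperones outside the list rose too. Stip1, which links Hsp70 with Hsp90, was at 21.0 and 18.5 CPM in WT-CD, 22.4 and 25.1 for R403Q-CD, and 71.6 and 74.9 for R403Q-EMPA (change 1.61 ± 0.19, adjusted p = 0.00728). The Hsp90 activator Ahsa2 was at 55.1 and 53.8 CPM in WT-CD, 62.2 and 47.8 for R403Q-CD, and 124 and 122 for R403Q-EMPA (change 1.18 ± 0.17, adjusted p = 0.0271). Like P4ha1, Ccdc141 and Hycc1 below, they are named to complete the 16 genes that rose and were chosen after their values were seen. Heat shock genes also rose in the other vascular endothelial nuclei, where 10 of 15 were called against R403Q-CD with a median of 1.49, beside 46 higher of 14291 genes tested in that class (0.322%).

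**Figure D3:**
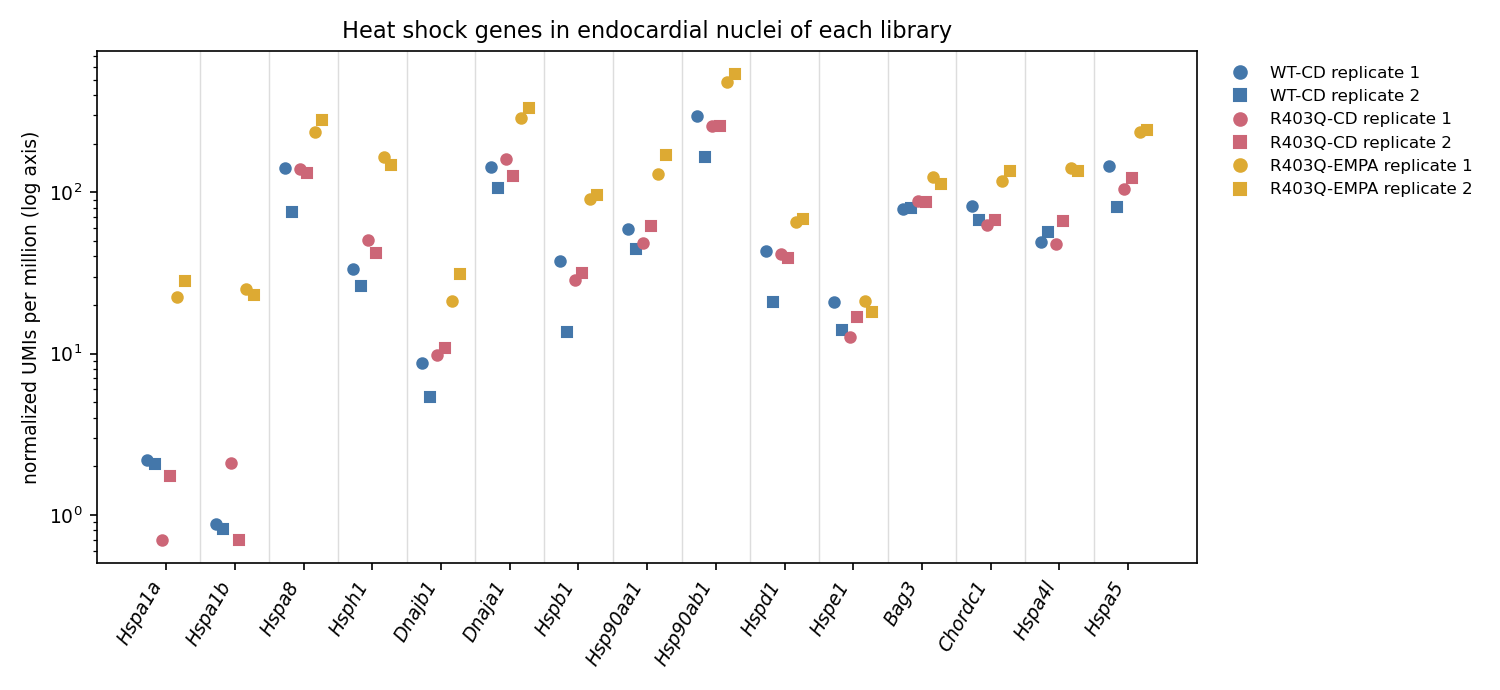
Normalized CPM (log axis) of the 15 heat shock genes in endocardial nuclei, 1 point per library (colour, group; shape, replicate). Both R403Q-EMPA libraries lie above the other 4 for Hsph1, Hsp90aa1 and Hspa4l, and Hspa1a and Hspa1b show the widest gap.

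Clock genes form a loop in which Arntl (also called Bmal1) with Clock or Npas2 switches on Per, Cry and Nr1d genes at E-boxes, and the products of these hold Arntl back. Dbp, Tef and Hlf drive, and Nfil3 represses, output genes at D-boxes. Promoters of 2 members that were lower in treated than in wild-type hearts are shown because Per3 holds 2 D-boxes (TTATGTAA) and Tef an E-box (CACGTG), in capitals. The windows are as above, Per3 at chr4:151044666-151044915 on the minus strand and Tef at chr15:81802423-81802672 on the plus strand.
Per3: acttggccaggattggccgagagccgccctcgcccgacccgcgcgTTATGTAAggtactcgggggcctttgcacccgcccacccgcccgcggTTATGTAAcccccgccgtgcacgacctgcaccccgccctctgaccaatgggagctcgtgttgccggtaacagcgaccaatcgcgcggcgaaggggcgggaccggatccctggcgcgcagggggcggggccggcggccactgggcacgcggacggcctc
Tef: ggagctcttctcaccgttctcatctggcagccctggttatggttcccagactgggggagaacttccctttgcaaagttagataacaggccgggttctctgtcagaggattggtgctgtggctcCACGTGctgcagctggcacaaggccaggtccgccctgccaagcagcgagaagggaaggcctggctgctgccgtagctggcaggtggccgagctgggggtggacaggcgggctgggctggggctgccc
On either strand, the D-box was found in 0.819% of all windows and in those of 1 of 15 matched clock genes (Per3), and the E-box in 6.02% and in 5 of 15 (Bhlhe41, Ciart, Cry1, Per1 and Tef).

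Arntl was at 3.93 and 7.39 CPM in WT-CD, 2.79 and 6.28 for R403Q-CD, and 52.4 and 41.2 for R403Q-EMPA, and both treated libraries exceeded all others. Its change was 3.22 ± 0.36 against R403Q-CD (adjusted p = 0.00601) and 3.03 ± 0.35 against WT-CD (adjusted p = 0.00403). Npas2, its partner, was at 13.1 and 23.0 CPM in WT-CD, 16.1 and 29.7 for R403Q-CD, and 57.8 and 61.8 for R403Q-EMPA. It rose against WT-CD (1.72 ± 0.30, adjusted p = 0.0285) but did not pass against R403Q-CD (1.31 ± 0.30, adjusted p = 0.16). Clock, the other partner, was at 101 and 113 CPM in WT-CD, 112 and 112 for R403Q-CD, and 161 and 169 for R403Q-EMPA and passed in neither (0.62 ± 0.15, adjusted p = 0.0919 for R403Q-EMPA against WT-CD). Nfil3 had 3 UMIs in WT-CD and 32 in R403Q-EMPA, a 12.6-fold ratio (counting interval 3.94 to 64.2, adjusted p = 0.0489). It was called in 2 of 13 alternatives, over which its change ran from 2.62 to 4.12.

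Of the opposite arm, 6 genes fell against WT-CD. Dbp was at 59.0 and 34.9 CPM in WT-CD, 26.5 and 25.5 for R403Q-CD, and 9.99 and 4.37 for R403Q-EMPA (change -2.61 ± 0.36, adjusted p = 0.0107), and the 3 groups did not overlap. Nr1d1, which encodes the repressor REV-ERB alpha, was at 38.9 and 15.2 CPM in WT-CD, 15.4 and 14.3 for R403Q-CD, and 4.99 and 1.25 for R403Q-EMPA (change -2.95 ± 0.56, adjusted p = 0.0401), with WT-CD replicate 1 far above the rest. Its relative Nr1d2 was at 185 and 158 CPM in WT-CD, 107 and 118 for R403Q-CD, and 66.2 and 54.9 for R403Q-EMPA (change -1.49 ± 0.17, adjusted p = 0.00403).

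Per3, a period gene, was at 239.9 and 170.0 CPM in WT-CD, 161 and 157 for R403Q-CD, and 86.5 and 65.5 for R403Q-EMPA (change -1.42 ± 0.20, adjusted p = 0.0114). Tef was at 309 and 341 CPM in WT-CD, 291 and 275 for R403Q-CD, and 149 and 187 for R403Q-EMPA (change -0.96 ± 0.16, adjusted p = 0.0233). Hlf was at 95.7 and 70.2 CPM in WT-CD, 62.2 and 61.4 for R403Q-CD, and 33.3 and 35.6 for R403Q-EMPA (change -1.27 ± 0.20, adjusted p = 0.0188). Both treated libraries were lowest for each. Per2 was at 164 and 179 CPM in WT-CD, 164 and 178 for R403Q-CD, and 164 and 166 for R403Q-EMPA, with all 6 values close together. Per1 and Cry1 had changes of -0.32 and -0.15 against WT-CD that did not pass.

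Of 18 clock genes in the files, 17 were tested. In R403Q-CD against WT-CD 0 were called (median -0.20, beside 0.00 over all genes), in R403Q-EMPA against R403Q-CD 1 rose (Arntl, median -0.34), and in R403Q-EMPA against WT-CD 3 rose and 6 fell (median -0.48, beside -0.01). In the latter, 1 to 2 rose and 3 to 5 fell when 1 library was left out. With at least 5 marker UMIs and 3 marker genes per member 1 rose and 3 fell, and in a fit of only the 4 libraries compared 2 rose and 3 fell. Dbp was called in all 14 alternatives, while Nr1d1 was called in 7 of 14 and in 1 of the 6 that left out a library. The clock time at which hearts were taken is not in the labels, so its part in the result was not tested. In other vascular endothelial nuclei 6 clock genes were called against WT-CD, with a median of -0.42, beside 91 of 14291 genes (0.637%).

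**Figure D4:**
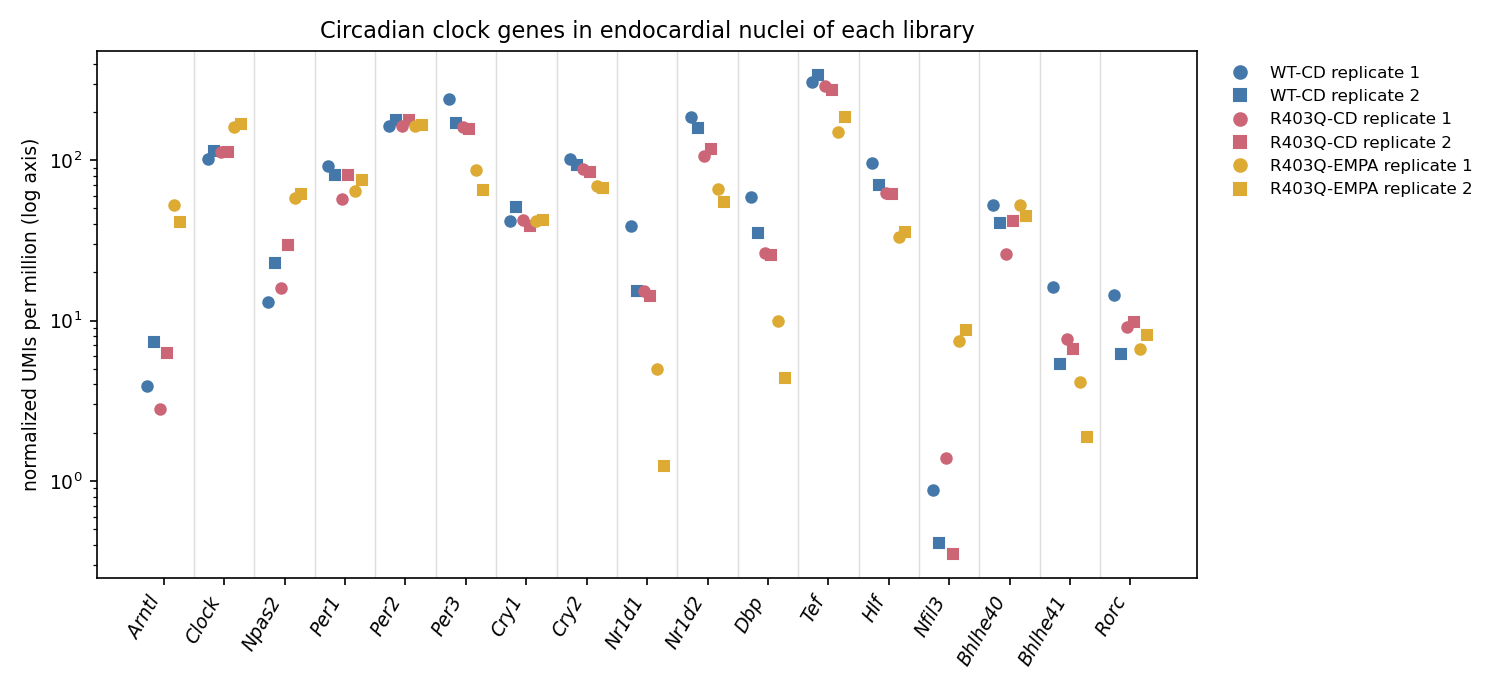
Normalized CPM (log axis) of the 17 clock genes tested in endocardial nuclei, 1 point per library (colour, group; shape, replicate). Arntl and Npas2 are highest, and Per3, Nr1d1, Nr1d2, Dbp, Tef and Hlf lowest, in both R403Q-EMPA libraries, while the 6 values of Per2 lie close together.

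Some of the largest changes lay in genes of the matrix and of secreted signals, and they rested on few nuclei. Dkk2, an inhibitor of Wnt signalling, had 1 UMI in R403Q-CD and 218 in R403Q-EMPA, from 16 and 8 nuclei, of which single nuclei held up to 53 and 33. Its level was 4.81 and 0 CPM in WT-CD, 0 and 0.349 for R403Q-CD, and 65.3 and 38.1 for R403Q-EMPA. The ratio was 234 (counting interval 41.5 to 9280, adjusted p = 0.00728). Hapln1, which links hyaluronan to proteoglycans and is a marker of valve endocardium, was at 2.62 and 2.46 CPM in WT-CD, 0.699 and 1.05 for R403Q-CD, and 25.4 and 16.9 for R403Q-EMPA (change 4.45 ± 0.52, adjusted p = 0.00601), from 20 and 7 treated nuclei. Both treated libraries lay above the other 4 for Dkk2 and Hapln1. Treated levels were higher in other endothelial classes too (CPM without normalization). Lymphatic endothelial nuclei had 0 of both genes in each untreated library. In R403Q-EMPA they had Dkk2 at 48.8 and 38.9 and Hapln1 at 6.45 and 51.9. Other vascular endothelial nuclei of R403Q-EMPA had Dkk2 at 11.7 and 14.9 and Hapln1 at 2.67 and 20.9, above the untreated libraries. Without those that met the 6-marker rule these were 7.21 and 0.368, and 1.37 and 1.10. Dock3, a Rac exchange factor, had 1 UMI against 78, an 83.7-fold ratio (14.6 to 3347, adjusted p = 0.0272).

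These RNAs were not spread evenly over the members. In R403Q-EMPA, Hapln1 was at 50.8 and 76.7 CPM in members with 2 rule genes, and at 11.4 and 0 in members with 3 or more. Dkk2 was at 77.4 and 119.2 against 60.2 and 15.1. Members with 2 rule genes made up 29.9% of R403Q-EMPA members and 17.4% of R403Q-CD members, and the part of this in the result was not tested. With at least 5 marker UMIs and 3 rule genes, the adjusted p of Dkk2 was 0.0697, that of Edil3 0.606, and Hapln1 was not tested. Dkk2, Hapln1, Dock3, Edil3 and Cdkn1a were not called without R403Q-CD replicate 1, R403Q-CD replicate 2 or R403Q-EMPA replicate 1 (for Hapln1 adjusted p = 0.0607, 0.167 and 0.178).

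Edil3, a secreted integrin ligand of endothelium, was at 17.9 and 16.4 CPM in WT-CD, 3.49 and 13.6 for R403Q-CD, and 65.3 and 47.4 for R403Q-EMPA (change 2.54 ± 0.38, adjusted p = 0.0271). P4ha1, a subunit of the prolyl hydroxylase that stabilizes collagen, was at 139 and 129 CPM in WT-CD, 129 and 142 for R403Q-CD, and 389 and 360.1 for R403Q-EMPA (change 1.47 ± 0.15, adjusted p = 0.00595), and both treated libraries were far above the other 4. Of the 18 matrix genes tested, 1 rose against R403Q-CD (Hapln1, median 0.38) and 3 against WT-CD (Hapln1, Col4a1 and Col4a2, median 0.37). The 3 became 0 without WT-CD replicate 2, without R403Q-EMPA replicate 1 or with stricter markers, and 1 without either R403Q-CD library. The basement membrane chains lay close to the threshold. Col4a1 was at 189.7 and 147 CPM in WT-CD, 195 and 212 for R403Q-CD, and 296 and 292 for R403Q-EMPA (change 0.80 ± 0.16, adjusted p = 0.0486). Col4a2 was at 83.9 and 87.1 CPM in WT-CD, 118 and 105 for R403Q-CD, and 175 and 133 for R403Q-EMPA (change 0.86 ± 0.17, adjusted p = 0.0499). Of 7 valve endocardial markers tested, Hapln1 rose against R403Q-CD (median 0.63), and Hapln1 and Wnt9b (1.93 ± 0.37, adjusted p = 0.0431) against WT-CD (median 0.19). Wnt9b, a Wnt ligand, was at 8.74 and 19.7 CPM in WT-CD, 16.8 and 28.6 for R403Q-CD, and 66.6 and 41.2 for R403Q-EMPA.

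Other genes that rose against R403Q-CD were Cdkn1a, Ccdc141 and Hycc1. Cdkn1a, the cell cycle inhibitor p21, was at 7.43 and 3.70 CPM in WT-CD, 6.29 and 8.37 for R403Q-CD, and 33.7 and 30.0 for R403Q-EMPA (change 2.07 ± 0.33, adjusted p = 0.0413), with both treated libraries above the other 4. It was the one member of the 11 tested glucocorticoid response genes to be called, and their median was -0.03. Ccdc141 was at 80.0 and 75.6 CPM in WT-CD, 106 and 112 for R403Q-CD, and 419 and 217 for R403Q-EMPA (change 1.55 ± 0.26, adjusted p = 0.0487). Hycc1 was at 47.6 and 53.0 CPM in WT-CD, 48.2 and 52.7 for R403Q-CD, and 109 and 98.0 for R403Q-EMPA (change 1.03 ± 0.17, adjusted p = 0.043). Among genes that fell, Mthfd1l, a mitochondrial folate enzyme, was at 149.9 and 142 CPM in WT-CD, 111 and 127 for R403Q-CD, and 45.3 and 40.6 for R403Q-EMPA (change -1.47 ± 0.17, adjusted p = 0.00601). Gm29007 was at 38.5 and 31.2 CPM in WT-CD, 36.3 and 34.9 for R403Q-CD, and 11.6 and 13.1 for R403Q-EMPA (change -1.53 ± 0.24, adjusted p = 0.0416).

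The MHC class I genes H2-K1 and H2-Q4, of a family whose products show peptides to T cells, were lower in treated than in untreated mutant hearts. H2-K1 was at 138 and 118 CPM in WT-CD, 163 and 235 for R403Q-CD, and 69.9 and 67.4 for R403Q-EMPA (change against R403Q-CD -1.55 ± 0.20, adjusted p = 0.00864). H2-Q4 was at 36.7 and 27.1 CPM in WT-CD, 49.6 and 63.5 for R403Q-CD, and 14.6 and 14.4 for R403Q-EMPA (change against R403Q-CD -1.98 ± 0.25, adjusted p = 0.00852). Both treated libraries were lowest for each. Against WT-CD the changes were -0.89 and -1.13, which did not pass (adjusted p = 0.0684 and 0.0734). H2-D1 was at 173 and 119 CPM in WT-CD, 162 and 293 for R403Q-CD, and 147 and 173 for R403Q-EMPA. B2m, the shared light chain, was at 131 and 108 CPM in WT-CD, 129 and 224 for R403Q-CD, and 86.5 and 113 for R403Q-EMPA. Neither passed in any comparison, and R403Q-CD replicate 2 was the highest library for both.

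Of 16 tested MHC and antigen presentation genes, 2 fell in R403Q-EMPA against R403Q-CD and 0 rose (median -0.82, beside 0.00 over all genes). Of all genes tested, 0.0419% fell. In R403Q-CD against WT-CD 0 were called, with a median of 0.55, and in R403Q-EMPA against WT-CD 0, with -0.24. The summed level was 736 and 616 CPM in WT-CD, 748 and 1195 for R403Q-CD, and 515 and 595 for R403Q-EMPA. H2-Q7, whose reads may be shared with H2-Q6, was at 3.06 and 5.75 CPM in WT-CD, 4.19 and 26.5 for R403Q-CD, and 0 and 1.25 for R403Q-EMPA. Of this list, 0 were called against R403Q-CD without R403Q-CD replicate 2 or R403Q-EMPA replicate 1. The summed lymphoid markers in members were 44.6 and 8.21 CPM, 4.19 and 30.7, and 5.82 and 16.2 in the same order, and the myeloid markers 333 and 161, 227 and 240.0, and 202 and 209.7. Their part in the result was not tested. In other vascular endothelial nuclei 3 of the 16 MHC genes were called in R403Q-EMPA against R403Q-CD (median -0.43), beside 62 of 14291 genes tested. The change of 0 of the 16 differed between the classes.

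Against WT-CD, the genes with the largest rises besides those above were Kcnma1, Nptx1, Nppa and Fam167a. Nppa, which encodes atrial natriuretic peptide, was at 20.1 and 6.98 CPM in WT-CD, 78.2 and 53.4 for R403Q-CD, and 309 and 66.8 for R403Q-EMPA (change 3.83 ± 0.65, adjusted p = 0.0245), and WT-CD lay below every other library. R403Q-EMPA replicate 1 was the highest by far, and without it, or without WT-CD replicate 2, the change was not called. Nppa was at 41.2 and 26.3 CPM, 128.8 and 169.4, and 1227 and 291.2 in cardiomyocyte nuclei of the same groups. In other vascular endothelial nuclei it was at 14.0 and 9.64, 67.0 and 58.0, and 452 and 74.2 CPM, with R403Q-EMPA replicate 1 highest in all 3 classes. The summed cardiomyocyte markers in members were 1912 and 1427 CPM in WT-CD, 2513 and 2189 for R403Q-CD, and 2458 and 2529 for R403Q-EMPA, and their part in the result was not tested.

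Kcnma1, a calcium-activated potassium channel, had 2 UMIs in WT-CD and 72 in R403Q-EMPA, from 10 and 5 nuclei, a 42.4-fold ratio (11.3 to 357, adjusted p = 0.0157). Nptx1 had 1 UMI against 28, from 10 and 2 nuclei, a 33.0-fold ratio (5.46 to 1350, adjusted p = 0.0376). In R403Q-EMPA replicate 2, 10 of its 11 UMIs came from 1 nucleus. Fam167a was at 1.75 and 1.64 CPM in WT-CD, 6.29 and 1.40 for R403Q-CD, and 25.4 and 20.6 for R403Q-EMPA (change 3.73 ± 0.55, adjusted p = 0.013). The lowest changes besides clock genes included those of Rgs7, Gm41361, Ccbe1, Car3 and Tnni3k. That of Car3 rested on few WT-CD nuclei, as given above. Ccbe1, a matrix factor of lymphatic growth, was at 19.2 and 27.1 CPM in WT-CD, 10.5 and 8.37 for R403Q-CD, and 2.496 and 6.24 for R403Q-EMPA (change -2.50 ± 0.41, adjusted p = 0.023). Rgs7, a regulator of G protein signalling, was at 11.4 and 14.8 CPM in WT-CD, 1.40 and 2.44 for R403Q-CD, and 0.832 and 2.496 for R403Q-EMPA (change -3.06 ± 0.57, adjusted p = 0.0359). In WT-CD, 26 UMIs of Rgs7 came from 14 nuclei in replicate 1. In replicate 2, 31 of its 36 came from 1 nucleus. Over the alternative settings its change ran from -3.88 to -0.003. Slc7a2 (change -1.95 ± 0.21, adjusted p = 0.00294) and Ptprd (-1.12 ± 0.22, adjusted p = 0.0477) passed here too, and for Slc7a2 the R403Q-CD libraries lay between the other groups.

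Pathways for which endocardium is best known are read against the 0%, 0.176% and 0.906% of all genes called in the 3 comparisons, shares at which a list of their size would hold under 1 call. Of 18 endocardial transcription factors, 0 were called in any comparison, with medians of 0.01, 0.02 and -0.02. Gata4 was at 251 and 255 CPM in WT-CD, 233 and 235 for R403Q-CD, and 251 and 215 for R403Q-EMPA. Nfatc1, needed for valve formation, was at 128 and 179 CPM in WT-CD, 168 and 146 for R403Q-CD, and 214 and 159 for R403Q-EMPA. Neither passed the test. Of 17 Notch pathway genes (medians 0.06, -0.12 and -0.05 in the same order of comparisons), Hey2 alone passed, against WT-CD. This target of Notch was at 6.99 and 6.57 CPM in WT-CD, 11.9 and 9.07 for R403Q-CD, and 59.1 and 23.1 for R403Q-EMPA (change 2.63 ± 0.43, adjusted p = 0.0214), with both treated libraries on top. Notch1 itself was at 294 and 319 CPM in WT-CD, 317 and 324 for R403Q-CD, and 319.9 and 371 for R403Q-EMPA. Of the 6 tested neuregulin and ErbB genes, besides Nrg1, 0 were called (medians -0.21, 0.00 and -0.22).

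Of 20 BMP and TGF-beta genes, 0 were called (medians -0.08, -0.03 and -0.12). Bmp6 was at 1505 and 1893 CPM in WT-CD, 1886 and 1538 for R403Q-CD, and 1150.4 and 894 for R403Q-EMPA and lowest in both treated libraries, with a change against R403Q-CD of -0.74 ± 0.20 that did not pass (adjusted p = 0.274). Inhba, a subunit of activin A, was at 132 and 138 CPM in WT-CD, 110.4 and 141 for R403Q-CD, and 194 and 238 for R403Q-EMPA (change 0.77 ± 0.17, adjusted p = 0.156). Of 11 VEGF and angiopoietin genes (medians -0.05, 0.08 and -0.04), Angpt1, a ligand of the receptor Tie2, fell against WT-CD. It was at 156 and 162 CPM in WT-CD, 108 and 97.7 for R403Q-CD, and 63.7 and 76.8 for R403Q-EMPA, and the 3 groups did not overlap (change -1.19 ± 0.16, adjusted p = 0.0102).

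Of 19 vasoactive and natriuretic genes 0 were called, with medians of -0.07, 0.19 and 0.04, and Nos3 was at 463 and 536 CPM in WT-CD, 529.5 and 520.2 for R403Q-CD, and 501 and 699 for R403Q-EMPA. Of 10 haemostasis genes (medians -0.09, 0.37 and 0.18) and 13 leukocyte adhesion and inflammation genes (-0.14, 0.19 and 0.05), Selp, in both lists, passed against WT-CD. Selp encodes P-selectin, and was at 4.81 and 5.75 CPM in WT-CD, 6.29 and 2.09 for R403Q-CD, and 45.8 and 16.2 for R403Q-EMPA (change 2.59 ± 0.52, adjusted p = 0.0477), with 110 UMIs from 61 nuclei and 26 UMIs from 8 nuclei in the treated libraries. Members with 2 rule genes were at 76.3 and 62.5 CPM in R403Q-EMPA and members with 3 or more at 29.4 and 3.19, beside 5.14 and 6.22 in WT-CD members with 3 or more. Of 13 flow sensing genes (medians 0.04, -0.01 and 0.02) Klf4 rose against WT-CD. This factor, induced by shear stress, was at 134 and 129 CPM in WT-CD, 148 and 192 for R403Q-CD, and 223 and 254 for R403Q-EMPA (change 0.86 ± 0.17, adjusted p = 0.0431), while its relative Klf2, at 347 and 211 CPM in WT-CD, 248 and 345 for R403Q-CD, and 360.3 and 453 for R403Q-EMPA, did not pass.

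Of 13 genes of endothelial to mesenchymal transition, 15 immediate early genes, 14 fatty acid handling genes and 12 sodium handling genes, 0 were called in any comparison. The median of the first of these lists was 0.87 in R403Q-EMPA against R403Q-CD, and 11 of its 13 values were positive. The medians of the other 3 lists in that comparison were -0.07, -0.05 and 0.11. Egr1, an immediate early factor, was at 45.01 and 35.3 CPM in WT-CD, 46.1 and 50.9 for R403Q-CD, and 20.4 and 20.0 for R403Q-EMPA (change against R403Q-CD -1.27 ± 0.22, adjusted p = 0.0574). Slc5a2, the gene of the EMPA target SGLT2, had 0 or 1 UMI in the members of each library and Slc5a1 had 0, so no difference was detectable at this depth.

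A last test asked whether a change in endocardial nuclei differed from that in the other vascular endothelial nuclei of the same libraries, over 13299 genes. A positive difference means a more positive change in endocardial nuclei. In R403Q-CD against WT-CD 0 genes passed (0%), and 746 had an unadjusted p under 0.05. In R403Q-EMPA against R403Q-CD 13 passed (0.0978%), 2 positive and 11 negative, and in R403Q-EMPA against WT-CD 25 (0.188%), 5 positive and 20 negative. With 1 library left out these counts ran from 0 (without R403Q-CD replicate 1) to 262, and from 0 (without either R403Q-CD library) to 396, the highest both without R403Q-EMPA replicate 2. They were 26 and 11 without R403Q-EMPA replicate 1, 22 and 1 without WT-CD replicate 1, and 18 and 8 without WT-CD replicate 2. Without R403Q-CD replicate 2 the first was 1.

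Hsph1 was the 1 heat shock gene of 15 whose change differed. In other vascular endothelial nuclei it was at 13.1 and 6.63 CPM in WT-CD, 13.6 and 10.3 for R403Q-CD, and 155 and 149 for R403Q-EMPA, a lower starting level than in members, and the treated levels were similar in both classes. The difference was -1.92 ± 0.21, adjusted p = 0.00343, against R403Q-CD and -1.59 ± 0.22, adjusted p = 0.022, against WT-CD. Inhba was at 1.17 and 1.36 CPM in WT-CD, 1.44 and 1.38 for R403Q-CD, and 8.06 and 12.5 for R403Q-EMPA in the other vascular endothelial nuclei, well below its level in members, and its change there was larger (difference -2.00 ± 0.30, adjusted p = 0.027 against R403Q-CD, and -2.24 ± 0.31, adjusted p = 0.022 against WT-CD). With the 6-marker rule the difference against WT-CD was -1.44 (adjusted p = 0.188). The comparison class without the nuclei that met that rule had Inhba at 4.72 and 3.68 CPM in R403Q-EMPA, against 8.15 and 12.4 CPM with them (both without normalization).

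Cdh11, Ncam1, Enpp6 and Bmx, all far more abundant in members, also had a negative difference. In members Cdh11 was at 1140.2 and 1203 CPM in WT-CD, 1109 and 1061 for R403Q-CD, and 1541 and 1316 for R403Q-EMPA. In the others it was at 12.4 and 11.3 CPM in WT-CD, 5.10 and 7.06 for R403Q-CD, and 32.1 and 61.7 for R403Q-EMPA (difference -2.42 ± 0.35, adjusted p = 0.0236). Bmx encodes an endothelial tyrosine kinase. In members it was at 392 and 389 CPM in WT-CD, 365 and 365 for R403Q-CD, and 319 and 208 for R403Q-EMPA. In the others it was at 24.0 and 18.5 CPM in WT-CD, 11.2 and 14.6 for R403Q-CD, and 45.8 and 31.8 for R403Q-EMPA (difference -2.05 ± 0.19, adjusted p = 0.00175). The difference was -3.29 ± 0.49, adjusted p = 0.027, for Ncam1 and -2.09 ± 0.21, adjusted p = 0.0031, for Enpp6. The comparison class of other vascular endothelial nuclei held 41 and 32 nuclei that met the 6-marker rule in R403Q-EMPA and 1 to 11 in the other libraries. Without these nuclei Cdh11 in that class was at 9.03 and 4.85 CPM in WT-CD, 4.87 and 4.10 for R403Q-CD, and 9.08 and 9.20 for R403Q-EMPA. With the 6-marker rule in place of the main one the difference against R403Q-CD was -2.07 for Bmx (adjusted p = 0.0108) and -2.16 for Enpp6 (adjusted p = 0.0412), and -2.13 for Ncam1 (adjusted p = 0.234).

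Cmah and Pcdh9 had a positive difference. Cmah encodes the enzyme that makes the sialic acid Neu5Gc. Its level in members was 38.5 and 58.7 CPM in WT-CD, 63.6 and 71.9 for R403Q-CD, and 479 and 68.0 for R403Q-EMPA. In the others it was at 31.7 and 32.4 CPM in WT-CD, 29.0 and 36.5 for R403Q-CD, and 49.0 and 14.3 for R403Q-EMPA. The difference was 2.02 ± 0.27, adjusted p = 0.0172, against R403Q-CD and 2.46 ± 0.28, adjusted p = 0.00875, against WT-CD. In members R403Q-EMPA replicate 1 stood far above the other libraries, with 1151 UMIs in 169 nuclei, and without it the difference against R403Q-CD was 1.20 (adjusted p = 0.263). With the 6-marker rule the differences against R403Q-CD were 2.09 for Cmah (adjusted p = 0.0758) and 1.42 for Pcdh9 (adjusted p = 0.0625), so neither was called. The protocadherin gene Pcdh9 had a level in members of 134 and 139 CPM in WT-CD, 109 and 116 for R403Q-CD, and 134 and 211 for R403Q-EMPA. In the others it was at 110.1 and 98.4 CPM in WT-CD, 71.0 and 87.9 for R403Q-CD, and 36.1 and 67.8 for R403Q-EMPA (difference 1.27 ± 0.16, adjusted p = 0.0154). Against WT-CD, Cyp26b1, which degrades retinoic acid, differed too. Its level in members was 25.3 and 17.7 CPM in WT-CD, 6.99 and 10.1 for R403Q-CD, and 14.1 and 14.4 for R403Q-EMPA. In the others it was at 92.6 and 58.2 CPM in WT-CD, 13.1 and 27.3 for R403Q-CD, and 4.93 and 14.6 for R403Q-EMPA (difference 2.60 ± 0.40, adjusted p = 0.0387). The carboxypeptidase gene Cpm (-2.55 ± 0.41, adjusted p = 0.0485), P3h2 (-1.93 ± 0.33, adjusted p = 0.0485) and Plscr2 (-1.92 ± 0.24, adjusted p = 0.00956) differed in the other direction. Cyp26b1, Cpm and P3h2 were each called in 1 of the 6 fits that left out a library, the fit without R403Q-EMPA replicate 2. Without R403Q-EMPA replicate 1 the difference of Cyp26b1 was 1.78 (adjusted p = 0.196) and without replicate 2 it was 3.33. Without R403Q-EMPA replicate 1 that of P3h2 was -1.17 (adjusted p = 0.154) and that of Cpm -2.76 (adjusted p = 0.217). For R403Q-CD against WT-CD the smallest p was that of Clstn2 (4.19 ± 0.55, adjusted p = 0.0807), at 9.57 and 6.63 CPM in WT-CD, 1.91 and 3.53 for R403Q-CD, and 8.30 and 5.71 for R403Q-EMPA in the other vascular endothelial nuclei. With the 6-marker rule that difference was 1.32 (adjusted p = 0.797). With the main rule and 1 library left out, the difference of Clstn2 ran from 3.58 to 4.92.

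**Figure D5:**
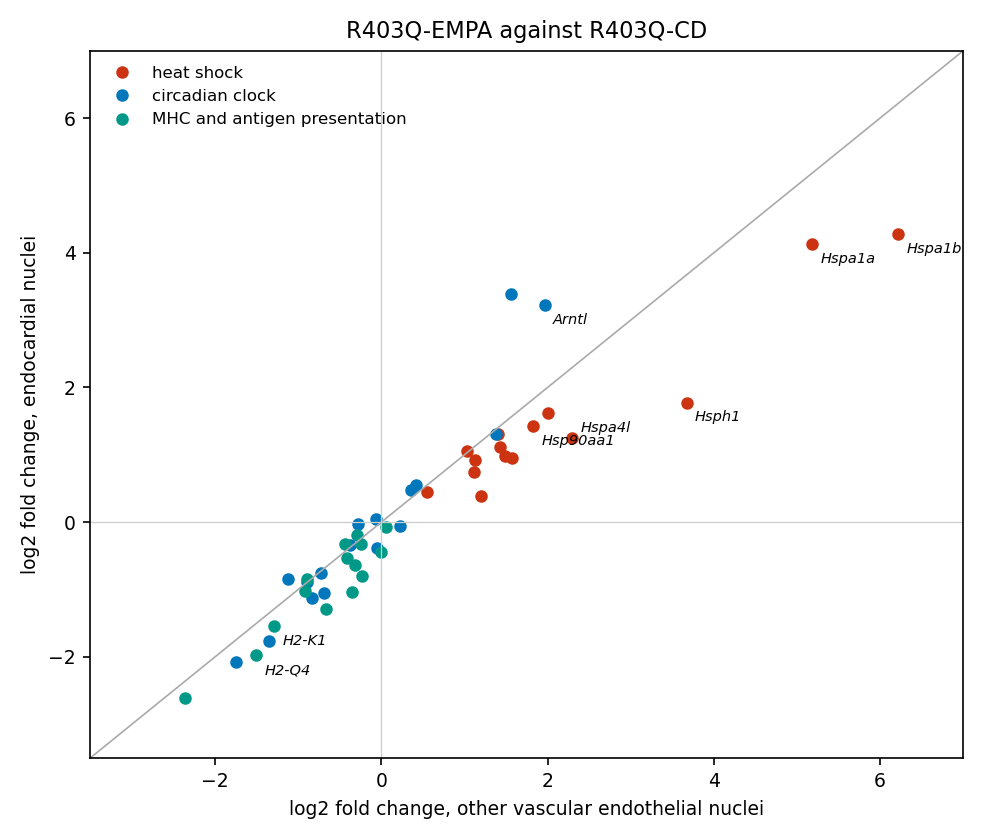
Log2 fold change of heat shock, clock and MHC genes in R403Q-EMPA against R403Q-CD, in other vascular endothelial nuclei (x axis) and endocardial nuclei (y axis), 1 point per gene, with a line where the changes are equal. Hsph1 lies far below the line, at 3.67 against 1.77, and most MHC genes lie below 0 on both axes.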

How the data were processed

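Single-nucleus RNA was measured in 6 left ventricle libraries, 2 per group. The deposited matrices hold UMI counts per gene and barcode, made by the authors with Cell Ranger 8.0.1 and genome GRCm39 per the submitters' processing notes; the annotation is not given in the sources used here. Nuclei with at least 500 UMIs, 300 genes and at most 5% mitochondrial UMIs were kept. Endocardial nuclei followed the rule given in the report. Other vascular endothelial nuclei had at least 3 UMIs of Pecam1, Cdh5, Ptprb and Flt1, at most 1 of the 5 marker genes, and the same exclusions. Scrublet doublets were predicted per library in scanpy 1.11.5 and kept. The members and gene lists were chosen with earlier results of these data known.

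Counts were summed per library and class and tested with edgeR 4.0.16 (R 4.3.3) by its quasi-likelihood test over all 6 libraries, with TMM normalization, its default filter on low counts and Benjamini-Hochberg adjustment over all genes tested (threshold 0.05). The difference between classes was an interaction term, with the library as a block. Class levels and ratios described without a test are CPM without TMM, with 1 added for ratios. Ratios for genes with 1 to 3 UMIs in a group carry 95% intervals that cover counting error only. Shares of nuclei were compared by an exact permutation test. Alternatives were DESeq2 1.42.0, no filter, doublets left out, stricter or other markers, deeper nuclei, shared barcodes left out, 4-library fits and leaving out each library. The script was tested on simulated data. Python 3.11.15, numpy 2.4.6, pandas 2.3.3, scipy 1.17.1, limma 3.58.1 and matplotlib 3.10.9 were used.

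Genes are named by these rules: the genes of the nucleus rule; per comparison, of the genes called, 8 at each end of the ranking by change whose libraries do not overlap between groups, or, with 0 called, the 8 with the smallest p; the same with 4 each way for the difference between classes; members of the lists; and 15 genes each way by class ratio, of at least 50 CPM and on 1 side in 6 of 6 libraries. A gene that these rules pick is not reported here.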

Additional observations from a re-analysis of the deposited data

Results flagged for a closer look

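These genes had a change in endocardial nuclei that differed from that in other vascular endothelial nuclei by edgeR's interaction test. The values are differences on the log2 scale, negative where the endocardial change was the lower. In R403Q-EMPA against R403Q-CD they were -3.29 for Ncam1, -2.42 for Cdh11, -2.09 for Enpp6, -2.05 for Bmx, -2.00 for Inhba, -1.92 for Hsph1, 1.27 for Pcdh9 and 2.02 for Cmah. In R403Q-EMPA against WT-CD they were -2.55 for Cpm, -2.24 for Inhba, -1.93 for P3h2, -1.92 for Plscr2, -1.59 for Hsph1, -1.45 for Bmx, -1.16 for Wt1, 0.87 for Dgkd, 1.38 for Pcdh9, 2.46 for Cmah and 2.60 for Cyp26b1. These calls rest on the libraries that the report names for this test.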

How the results depend on the processing

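No paired analysis was possible because the replicate numbers only name the libraries of a group. Genes called in endocardial nuclei ran from 0 to 2 (R403Q-CD against WT-CD), 0 to 63 (R403Q-EMPA against R403Q-CD) and 16 to 196 (R403Q-EMPA against WT-CD) with 1 library left out, and genes whose change differed between classes from 0 to 31, 0 to 262 and 0 to 396. With no filter on low counts the counts, in the same order, were 71, 272 and 583, and 106, 276 and 386 for the difference between classes. For R403Q-EMPA against R403Q-CD, DESeq2 called 53 genes, the fit of 4 libraries 42, and stricter markers (5 UMIs, 3 genes) 10. For R403Q-EMPA against WT-CD, the fit of 4 libraries called 37 genes and stricter markers 27. The difference between classes gave 27 genes for R403Q-EMPA against R403Q-CD without predicted doublets, and 1 gene for R403Q-CD against WT-CD with stricter markers. With 6 other markers, chosen after seeing the data, 42 and 165 genes were called in the last 2 comparisons, and 75 for the difference in R403Q-EMPA against WT-CD. The share in R403Q-EMPA minus WT-CD turned to -0.298 points with stricter markers, -0.394 as a share of endothelial nuclei and -0.0406 with no mitochondrial limit. It kept its sign with the 6 other markers, without predicted doublets, and with nuclei thinned to 2000 UMIs. With 1 library left out, the differences in share were -2.06 to 1.49, -0.611 to 2.94 and 0.341 to 1.42 points; the first turned to 0.00958 without WT-CD replicate 2 and 1.49 without R403Q-CD replicate 1, the second to -0.611 without R403Q-CD replicate 1. The causes were not tested. A member nucleus held a median of 3623.5 UMIs, so genes of few UMIs were measured in few nuclei, and 2 libraries per group limit each test.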
